A study of Mus musculus with 9 samples.

Results

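The early growth response (EGR) genes *Egr1*, *Egr2*, *Egr3* and *Egr4* and the genes of their NAB corepressors, *Nab1* and *Nab2*, were followed in mouse granulosa cells after an ovulatory hormone stimulus. The 6 genes were taken by symbol out of 25059 gene identifiers, and the rows of each identifier were summed in each library. The cells came from ovaries of Kunming mice (postnatal day 21) that all received 5 IU of PMSG, the gonadotropin of pregnant mares, which drives follicle growth. The 0 h group was taken 48 h after PMSG. The other 2 groups were taken 1 h and 6 h after 5 IU of hCG (human chorionic gonadotropin), a ligand of the LH receptor. Each time has 3 libraries, for 9 in all. Granulosa cells are the somatic cells of the follicle wall and of the cumulus around the oocyte.

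EGR proteins are zinc finger transcription factors that bind GC-rich sites and are made within minutes to hours of a growth factor or hormone signal. ERK kinases activate ternary complex factors such as ELK1, which act with serum response factor (SRF) at CArG boxes in EGR promoters, and CREB can act at cAMP response elements there. NAB1 and NAB2 bind an inhibitory domain of EGR1, EGR2 and EGR3 and recruit the NuRD chromatin remodelling complex, and NAB2 is itself known as an EGR target, so the pair forms a feedback loop. EGR1 is best known in reproduction from the pituitary, where the LH beta gene requires it.

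Upstream sequences show which known kinds of site lie close to the starts of these genes. RefSeq windows on GRCm38.p6 (mm10) matched 4 of the 6 members, *Egr2*, *Egr4*, *Nab1* and *Nab2*. Bases before the start site are printed for *Egr2*, *Egr4* and *Nab2*, which share a peak at 1 h, where those bases lie outside annotated exons. Capitals mark matches to the EGR cores GCGTGGGC and GCGGGGGC, the cAMP response half-site TGACG, the CArG box and the TATA sequence TATAAA, searched on both strands.

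Egr2, chr10:67537619-67537868, plus strand: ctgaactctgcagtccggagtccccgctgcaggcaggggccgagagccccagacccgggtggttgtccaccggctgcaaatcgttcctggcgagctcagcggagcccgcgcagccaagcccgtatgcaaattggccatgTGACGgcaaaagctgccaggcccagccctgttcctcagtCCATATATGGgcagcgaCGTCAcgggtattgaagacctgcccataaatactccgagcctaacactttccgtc

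Egr4, chr6:85513590-85513839, minus strand: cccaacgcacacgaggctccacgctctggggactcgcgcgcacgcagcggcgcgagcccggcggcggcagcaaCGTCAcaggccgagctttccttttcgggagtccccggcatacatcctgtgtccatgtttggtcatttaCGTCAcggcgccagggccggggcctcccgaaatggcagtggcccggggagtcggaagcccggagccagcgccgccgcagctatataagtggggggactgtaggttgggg

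Nab2, chr10:127666711-127666900, minus strand: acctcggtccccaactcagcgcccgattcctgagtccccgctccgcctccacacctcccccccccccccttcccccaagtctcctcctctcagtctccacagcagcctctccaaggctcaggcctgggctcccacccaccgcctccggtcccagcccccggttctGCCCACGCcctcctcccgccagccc

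The *Egr2* stretch holds a CArG box 72 to 63 bases before the start and 2 cAMP half-sites. RefSeq lists other *Egr2* starts, and the window before the start at 67537566 holds another CArG match, CCTTTTTTGG. The window before the *Egr2* start at 67535499 holds no match to any of these sites. The CArG box was in 1.47% of 32851 windows of 250 bases before RefSeq starts, and TGACG in 17.8%. The *Egr4* stretch holds 2 cAMP half-sites and no CArG box. The *Nab2* stretch holds a single EGR core, GCGTGGGC on the other strand, 32 to 25 bases before the start. That start, at 127666703, lies inside the annotated *Nab2* gene (127660918 to 127668568), and which start the cells used is unknown. The stretch also lies directly upstream of *Nemp1*, a gene on the plus strand that begins at 127666901. This core was in 1.37% of windows and GCGGGGGC in 4.25%. The window of *Nab1*, most of which lies in an annotated exon and is not printed, holds GCGTGGGC in 2 places and GCGGGGGC in 1. G and C made up 72.8% of the *Nab2* window and 80.8% of that of *Nab1*. The shares over all windows were not matched for this. TATAAA was in 12.4% of all windows and in none of those of the 4 members with a window. Only these exact letters were searched, so other forms, such as tatataag in the *Egr4* stretch, were not counted. These matches describe letters only. No measurement of binding was analysed here.

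Levels are given as FPKM, a unit that divides fragments by transcript length and library size and so can be compared between genes. Changes were tested with limma on log2(FPKM + 1) over the 14535 genes that reached 1 FPKM in 3 or more libraries. Genes whose p, after Benjamini-Hochberg adjustment, was below 0.05 are termed called. All 6 members passed that filter, *Egr4* only through its 1 h libraries and *Egr3* only through its 1 h and 6 h libraries. The sum of FPKM per library ran from 491920 to 495500 at 0 h, from 527030 to 570990 at 1 h and from 513430 to 539280 at 6 h, and the depth in reads is unknown. Whether the 3 libraries of a group are separate mice or pools is not in the labels, so p-values measure the spread between libraries, which may be technical. Time after hCG cannot be told apart from time of day. In a bulk sample, a change in the number of cells that express a gene and a change in RNA per cell cannot be told apart.

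Within 1 h of hCG 6 of 6 members were called higher than at 0 h, where 9.68% of all genes tested were called higher. By 6 h the members had parted. From 1 h to 6 h *Egr1*, *Egr2*, *Egr4* and *Nab2* were called lower, as were 26.9% of genes tested, while *Egr3* and *Nab1* were called higher, as were 26.7%. Against 0 h, 5 of 6 were called higher at 6 h (28.8% of genes tested) and *Egr4* was not called. The groups were apart in 6 of 6 members at 1 h against 0 h (35.5% of genes tested), 5 of 6 at 6 h against 0 h (64.9%) and 6 of 6 at 6 h against 1 h (60.5%). *Egr4* passed the filter only through its 1 h libraries, so its groups had to be apart wherever 1 h was compared. Its calls in those comparisons are likewise not free of the filter. Nor are the calls and places of *Egr3* against 0 h, since it passed only through its 1 h and 6 h libraries. Both comparisons with 0 h share its libraries. Of the 1407 genes called higher in the first hour, 554 (39.4%) were called lower from 1 h to 6 h, as *Egr1*, *Egr2*, *Egr4* and *Nab2* were, and 395 (28.1%) were called higher again, as *Egr3* and *Nab1* were. With FPKM scaled to the mean library sum the calls at 1 h were 1002 higher and 2634 lower, in place of 1407 and 869, and under quantile normalization 1148 and 1233. The 6 members were called higher at 1 h under both.

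*Egr1* (ENSMUSG00000038418, chromosome 18, 34859823 to 34864984, mm10, plus strand) was the most abundant member at each time. It measured 122, 117 and 147 FPKM before hCG, 629.6, 516 and 674 after 1 h, and 219.6, 199 and 182 after 6 h. The groups did not overlap, and the 1 h libraries stood far above the others. The mean rose from 128 ± 16.1 to 606 ± 81.7 FPKM (SD, n = 3) in the first hour, a ratio of 4.72, and its log2 change was 2.23 ± 0.12 (SE, limma adjusted p = 3.1e-06). By 6 h it had fallen to 200.2 ± 18.8 FPKM (−1.59 ± 0.12 against 1 h, adjusted p = 5.0e-06). It was still above 0 h by 0.64 ± 0.12 (adjusted p = 0.00148). By mean level *Egr1* was in place 458 of all gene identifiers at 0 h, 86 at 1 h and 310 at 6 h.

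*Egr2* (ENSMUSG00000037868, chromosome 10, 67535475 to 67542188, plus strand), also known for its role in myelinating Schwann cells, had a sharper peak. Its libraries measured 2.12, 2.60 and 3.65 FPKM before hCG, 26.6, 23.3 and 24.4 after 1 h, and 4.31, 5.24 and 3.68 after 6 h. The groups did not overlap, although the lowest 6 h library lay just above the highest 0 h library. *Egr2* rose by 2.78 ± 0.16 on the log2 scale at 1 h (limma adjusted p = 3.3e-06) and fell by 2.26 ± 0.16 from 1 h to 6 h (adjusted p = 2.4e-06). Its remaining change at 6 h against 0 h was 0.52 ± 0.16 (adjusted p = 0.0160). It was no longer called when 0 h replicate 1 was left out (0.39, adjusted p = 0.0587), or 6 h replicate 2 (0.42, adjusted p = 0.0639). With a pseudocount of 5 it was 0.27, and from the most abundant row alone 0.95.

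*Egr3* (ENSMUSG00000033730, chromosome 14, 70077203 to 70082614, plus strand), known for its part in muscle spindle development and in lymphocytes, followed another course. It measured 0.665, 0.483 and 0.252 FPKM before hCG, 13.8, 12.5 and 17.6 after 1 h, and 29.99, 41.6 and 32.1 after 6 h. Every 6 h library lay above every 1 h library, and every 1 h library above every 0 h library. The log2 change was 3.41 ± 0.16 at 1 h (limma adjusted p = 1.3e-06) and 4.60 ± 0.16 at 6 h (adjusted p = 4.7e-08), both against 0 h. The further rise from 1 h to 6 h was 1.18 ± 0.16 (adjusted p = 0.000231). *Egr3* thus stood in place 25 from the top of all genes tested by log2 change at 1 h and in place 23 at 6 h. Since its 0 h level lies below the pseudocount, the 1 h change ranged from 1.84 with a pseudocount of 5 to 4.76 with 0.1, and the change at 6 h against 0 h from 2.84 to 5.99.

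*Egr4* (ENSMUSG00000071341, chromosome 6, 85511121 to 85513589, minus strand), a family member best known from male germ cells, was low throughout. It measured 0.251, 0.208 and 0.503 FPKM before hCG, 3.64, 3.09 and 3.83 after 1 h, and 0.0852, 0.222 and 0.0742 after 6 h. Only the 1 h libraries exceeded 1 FPKM, and the 0 h and 6 h libraries overlapped. It rose by 1.78 ± 0.14 at 1 h (limma adjusted p = 3.0e-05) and fell by 2.003 ± 0.14 from 1 h to 6 h (adjusted p = 2.4e-06). The difference between 6 h and 0 h was −0.22 ± 0.14 (adjusted p = 0.189). Its 95% interval, taken with the 6 residual degrees of freedom alone, ran from −0.56 to 0.11. These log2 values understate the change of so low a gene, and the 1 h change was 3.16 with a pseudocount of 0.1 and 0.68 with 5. The change from 1 h to 6 h was −4.05 and −0.73 with the same pseudocounts, and the uncalled difference between 6 h and 0 h was −0.88 and −0.05.

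*Nab1* (ENSMUSG00000002881, chromosome 1, 52457294 to 52500679, minus strand) was the steadiest member before hCG. Its libraries measured 11.3, 11.8 and 11.4 FPKM before hCG, 21.4, 19.4 and 23.3 after 1 h, and 28.0, 32.7 and 28.0 after 6 h. The groups did not overlap and stood in the order of time, as for *Egr3*. The rise was 0.83 ± 0.09 at 1 h (limma adjusted p = 0.000200) and 1.28 ± 0.09 at 6 h (adjusted p = 1.8e-06), both against 0 h. From 1 h to 6 h it was 0.45 ± 0.09 (adjusted p = 0.00185).

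*Nab2* (ENSMUSG00000025402, chromosome 10, 127660918 to 127668568, minus strand) began below *Nab1*. It measured 7.39, 9.15 and 8.98 FPKM before hCG, 52.4, 36.6 and 56.5 after 1 h, and 21.3, 26.5 and 22.9 after 6 h. All 3 groups were apart, with 1 h the highest and 6 h between. The log2 change was 2.36 ± 0.16 at 1 h (limma adjusted p = 1.1e-05), −0.99 ± 0.16 from 1 h to 6 h (adjusted p = 0.000515) and 1.37 ± 0.16 at 6 h against 0 h (adjusted p = 5.4e-05). At 6 h *Nab2* held 37.8% of its first-hour gain in mean FPKM, where *Egr1* held 15.0% and *Egr2* 7.38%. *Nab2* shares 1668 bases with *Nemp1* and 40 with *Stat6*, both on the other strand, and the library protocol does not state whether strand was kept. *Nemp1* measured 8.70 ± 0.828, 8.05 ± 0.00750 and 7.02 ± 0.720 FPKM at 0, 1 and 6 h, and *Stat6* 12.3 ± 0.726, 14.1 ± 0.579 and 13.4 ± 1.79. *Gm16229*, antisense to *Nab2* over 1646 bases, was not analysed here.

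**Figure D1:**
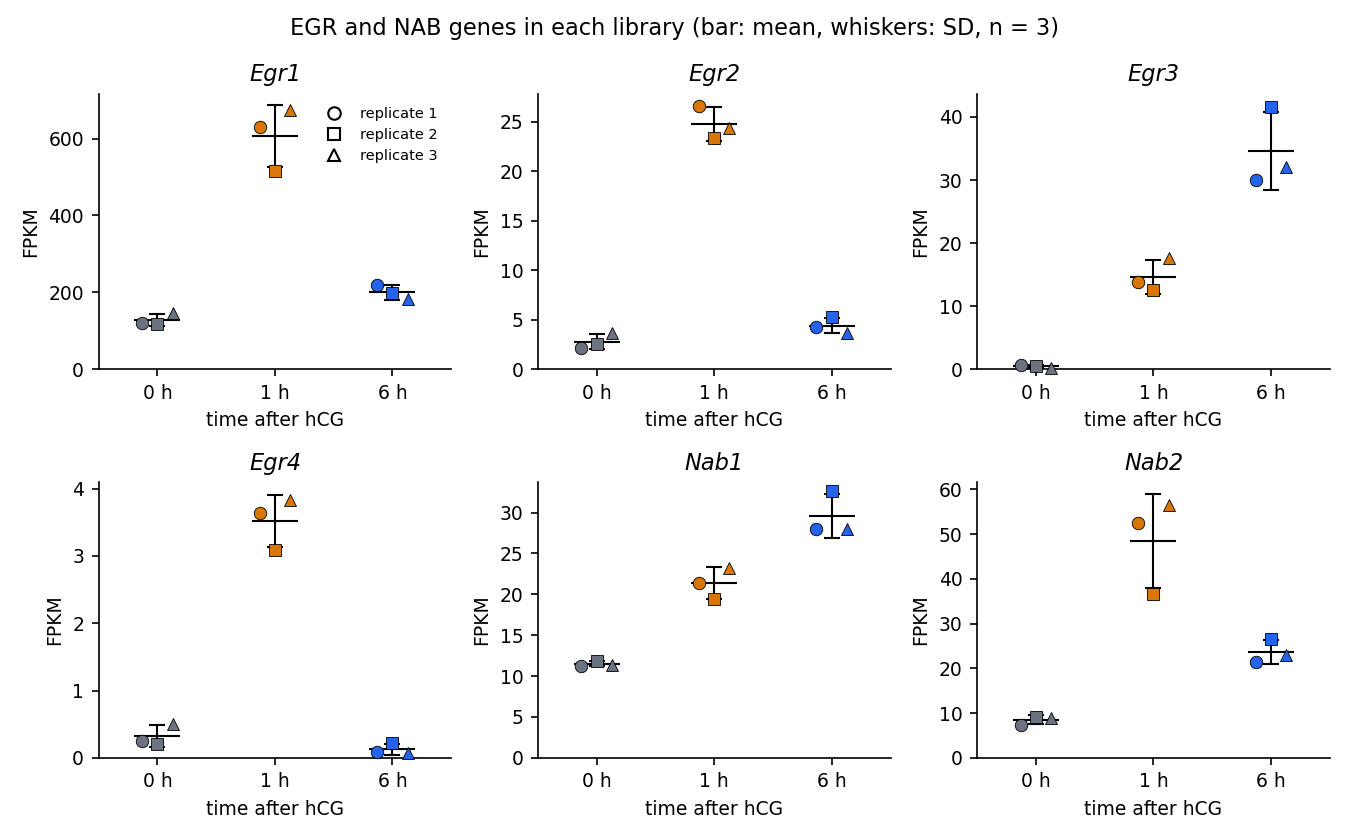
FPKM of each member in every library by time after hCG (points, shaped by replicate; bar, mean; whiskers, SD; n = 3 per time), each panel on its own linear axis from 0. *Egr1*, *Egr2*, *Egr4* and *Nab2* are highest at 1 h, while *Egr3* and *Nab1* are highest at 6 h, with 34.6 and 29.5 FPKM on average.

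**Figure D2:**
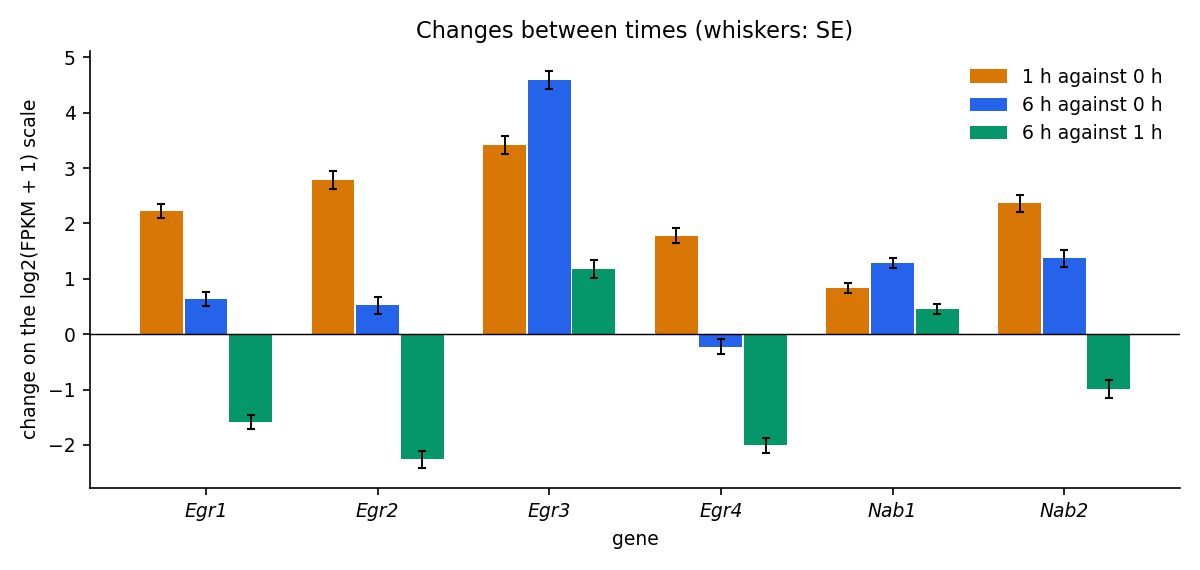
Log2 change of each member on the log2(FPKM + 1) scale in the 3 comparisons (bars; whiskers, SE from limma). All bars for 1 h against 0 h are above 0, from 0.83 in *Nab1* to 3.41 in *Egr3*, and the bars for 6 h against 1 h are above 0 only in *Egr3* and *Nab1* among these 6 genes.

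By size, 5 of the 6 changes at 1 h lay among the 136 highest of 14535 genes, and *Nab1* was in place 522. At 6 h against 0 h the places ran from 23 for *Egr3* through 710 for *Nab2*, 791 for *Nab1*, 2038 for *Egr1* and 2515 for *Egr2* to 9513 for *Egr4*. The median change over all genes tested was −0.00456 at 1 h and −0.00408 at 6 h, both against 0 h. With FPKM scaled to the mean library sum, the median at 1 h was −0.14.

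**Figure D3:**
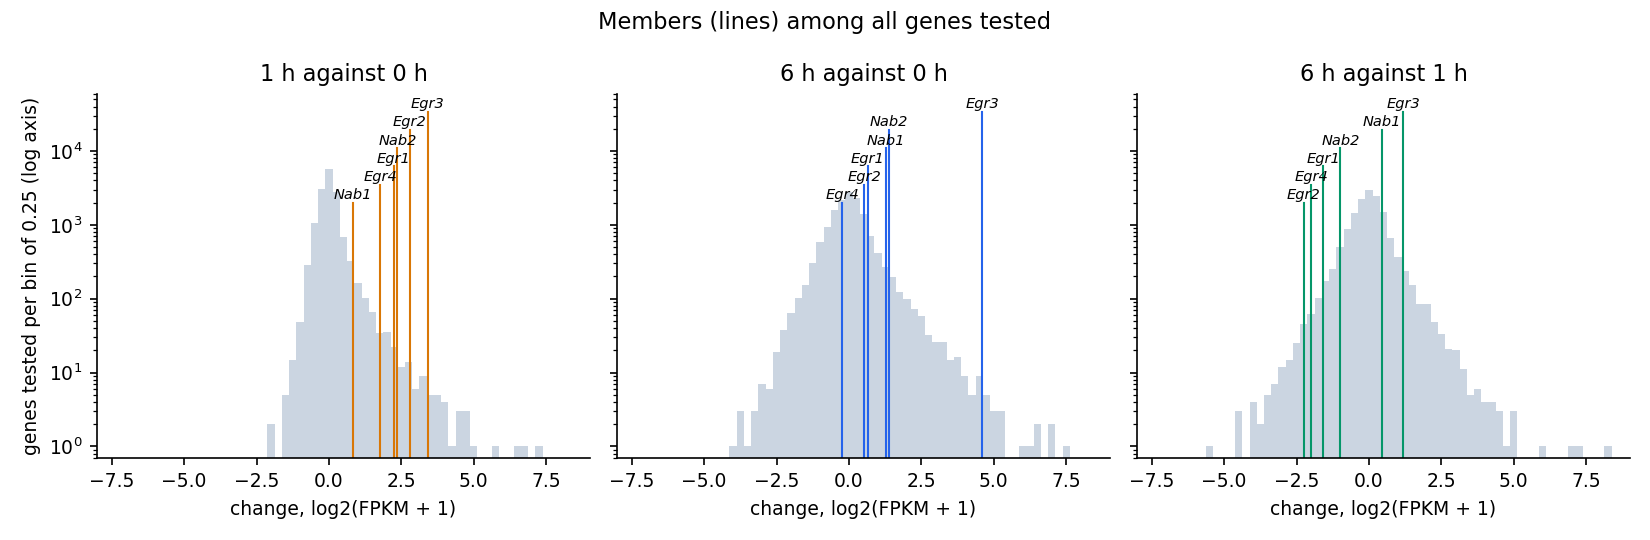
Histograms of the log2 change of the 14535 genes tested in each comparison (grey, log count axis, bins of 0.25) with the members as labelled lines. At 1 h the lines lie in the upper tail, and at 6 h against 0 h only *Egr3*, at 4.60, remains far out in it among the members.

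The balance within the family shifted over the same hours. Such ratios within a library do not depend on how libraries are scaled to each other. Of the summed EGR FPKM, *Egr1* made up 97.3 ± 0.241% before hCG, 93.4 ± 0.336% after 1 h and 83.6 ± 2.80% after 6 h (SD, n = 3). *Egr3* supplied 0.367 ± 0.186% at 0 h, 2.25 ± 0.201% at 1 h and 14.5 ± 2.56% at 6 h, with no overlap between times. In rank, *Egr3* was the fifth of the 6 genes at 0 h, where its range overlapped that of *Egr4*, and the second at 6 h, where its range overlapped that of *Nab1*. At 1 h the order was *Egr1*, *Nab2*, *Egr2*, *Nab1*, *Egr3* and *Egr4*, and no neighbours overlapped.

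The summed EGR level was 6.61 ± 0.846 times the summed NAB level at 0 h, 9.35 ± 0.485 times at 1 h and 4.53 ± 0.542 times at 6 h. The libraries ranged from 5.73 to 7.41 at 0 h, from 9.02 to 9.91 at 1 h and from 4.16 to 5.15 at 6 h, so the 3 times did not overlap. *Nab2* measured 0.739 ± 0.0721 of *Nab1* at 0 h, 2.25 ± 0.320 times *Nab1* at 1 h and 0.798 ± 0.0305 of it at 6 h. The leading corepressor gene was thus *Nab1* at 0 h and 6 h and *Nab2* at 1 h, in all 3 libraries of each time. *Egr1* stood at 15.2 ± 2.09, 12.7 ± 1.23 and 8.57 ± 1.499 times *Nab2* at 0, 1 and 6 h. The 0 h and 1 h ranges of that ratio overlapped, and the 6 h libraries (7.50 to 10.3) lay below both. From the row of each gene with the highest mean over the 9 libraries, that ratio was 26.7 at 0 h (23.6 to 29.8). It was 17.4 at 1 h (15.4 to 20.6) and 10.7 at 6 h (9.25 to 12.8), with no overlap between times. From the same rows *Nab2* was at 0.396, 1.65 and 0.496 of *Nab1*. At 0 h, however, that row of *Nab2* was not its highest, with 3.32 FPKM on average against 5.05 in another row. The 0 h ratios from single rows, and their distance from 1 h, thus depend on the *Nab2* row chosen. These ratios are descriptions, and 3 libraries against 3 cannot give an exact two-sided p below 0.10.

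**Figure D4:**
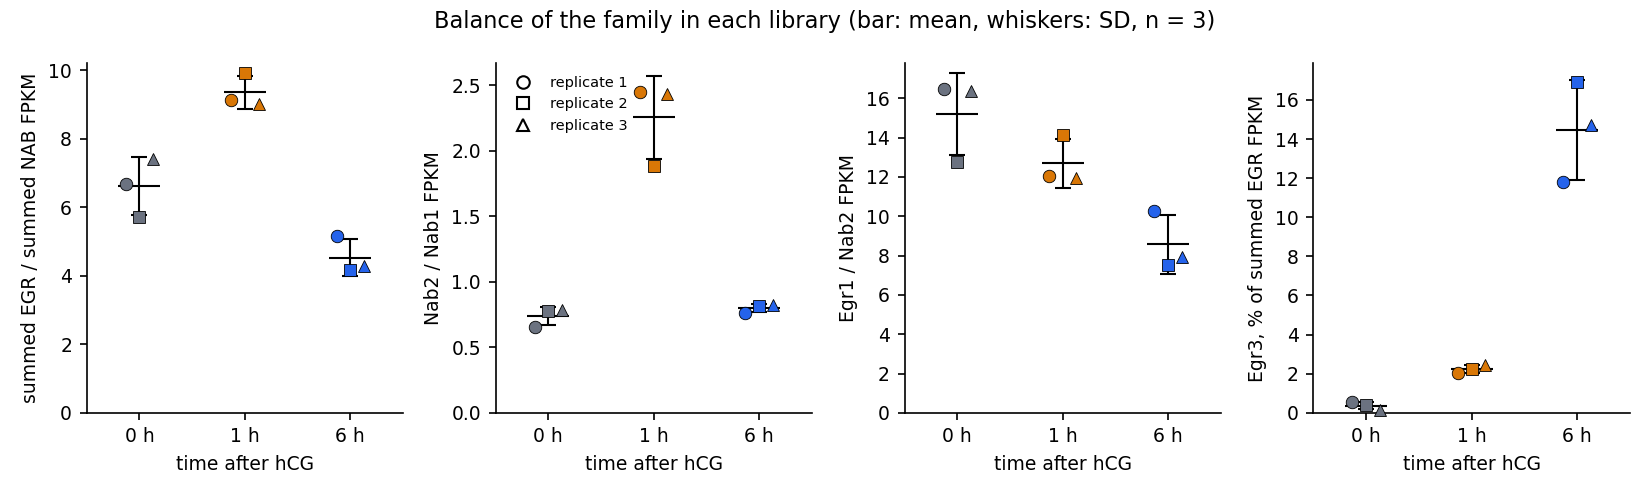
Ratios of FPKM within each library by time after hCG (points, shaped by replicate; bar, mean; whiskers, SD; n = 3), on linear axes from 0. The ratio of summed EGR to summed NAB is highest at 1 h (9.02 to 9.91), and *Egr3* makes up 11.8 to 16.9% of the EGR sum at 6 h.

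Several members are split over transcript rows, which the tables do not name. *Egr1* has 2 rows, *Egr2* 7, *Nab1* 3, *Nab2* 4, and *Egr3* and *Egr4* 1 each. The row with the highest mean is called the leading row here, and the share of reads between similar rows is an estimate of the authors' program. In *Egr2* the next row held 36.6% of the gene at 0 h, with a mean of 1.02 ± 0.387 FPKM, and at most 0.0168% in any library at 1 h or 6 h. The leading row of *Egr2* went from 57.0 to 70.5% of the gene at 0 h to 93.8 to 98.7% at 1 h and 94.1 to 99.99% at 6 h.

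By group means, the next row of *Nab2* was above the leading row at 0 h and below it at 1 h and 6 h. In 1 h replicate 2 the next row was still the higher, at 50.3% against 49.8%. The leading row held 37.0 to 42.6% of *Nab2* at 0 h, 49.8 to 58.3% at 1 h and 49.2 to 58.1% at 6 h, and the next row held 59.3%, 44.2% and 44.0% on average. In *Egr1* the leading row held 67.0 to 69.5% at 0 h and 72.5 to 75.6% at 1 h, and at 6 h it spread from 61.7 to 72.3%. In *Nab1* it held 63.2 to 79.8%, 62.6 to 80.0% and 82.9 to 93.0%. Between 0 h and 1 h the leading row's share was apart in 3 of these 4 genes, *Egr1*, *Egr2* and *Nab2* (14.8% of all tested genes with more than 1 row). Between 0 h and 6 h it was apart in 3, *Egr2*, *Nab1* and *Nab2* (19.2%), and between 1 h and 6 h in *Nab1* alone among the 4 (19.6%).

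**Figure D5:**
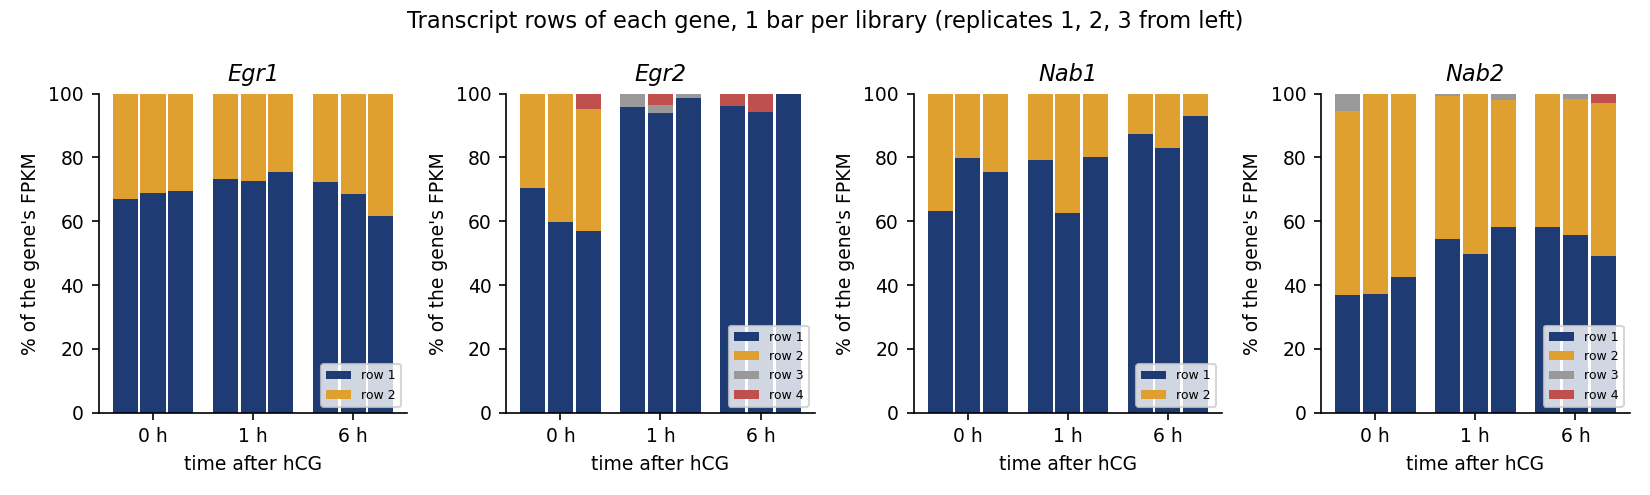
Share of each gene's FPKM in its transcript rows, 1 stacked bar per library, for the 4 members with more than 1 row (rows numbered by their mean over 9 libraries, rows under 0.01 FPKM in every library left out). Row 2 of *Egr2* is seen at 0 h only, and row 1 of *Nab2* goes from 37.0 to 42.6% at 0 h to 49.8 to 58.3% at 1 h.

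The genes nearest in pattern were found by Pearson's r of log2(FPKM + 1) over the 9 libraries, which fall into 3 times, so high values come easily. Predicted, clone-type, assembled and duplicate names were left out, so a gene not listed may lie nearer. Nearest to *Egr1* were *Arrdc3*, *Zc3h15*, *Ell2*, *Junb* and *Plk2* (r = 0.991 to 0.995). *Egr2* had *Nr4a3*, *Btg2*, *Homer1*, *Junb* and *Plk2* (0.991 to 0.995). *Egr4* had *Flrt3*, *Pim3*, *Ythdc1*, *Tnfsf11* and *Ccng2* (0.990 to 0.995). These lists hold genes that peaked at 1 h. *Nab2*, which stayed higher at 6 h, had *Fndc4*, *Camk2n2*, *Pi4k2b*, *Adamts1* and *Armcx3* (0.990 to 0.994).

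*Egr3* was nearest to *Ptgs2*, the inducible prostaglandin synthase gene (0.712, 46.4 and 119 FPKM at 0, 1 and 6 h), and to *Rnf14*, *Eif1*, *Dusp4* and *Pgr*, the progesterone receptor gene (r = 0.996 to 0.997). *Nab1* was nearest to *Has2*, the hyaluronan synthase gene (0.713, 9.18 and 21.7 FPKM), and to *Arhgef2*, *Zfp948*, *Tle3* and *Rnf14* (0.993 to 0.998). Between members r was 0.990 for *Egr3* with *Nab1* and 0.986 for *Egr1* with *Egr2*, and 0.170 for *Egr3* with *Egr4*.

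The genes that act upstream of the EGR promoters were called at rates to be read against those of all genes tested, 9.68% higher and 5.98% lower at 1 h and 28.8% higher and 27.9% lower at 6 h, both against 0 h. Of 13 genes for ERK pathway kinases, ternary complex factors, SRF, its coactivators and CREB, 2 were called higher and 1 lower at 1 h, with a median of 0.02 that turned to −0.13 with FPKM scaled to the mean sum and −0.05 under quantile normalization. *Braf* (0.36) and *Elk4* (0.30) were the higher calls, both lost with FPKM scaled to the mean sum (adjusted p = 0.0611 and 0.0966) and without 1 h replicate 3 (0.0522 and 0.0529). *Braf* was also lost without 0 h replicate 2 (0.0514) and *Elk4* without 0 h replicate 1 (0.0546) or 1 h replicate 1 (0.0554) and under quantile normalization (0.0941). *Mkl2*, an SRF coactivator gene, fell from 34.8 ± 4.30 to 21.995 ± 0.449 FPKM and was at 44.4 ± 2.91 at 6 h, above both earlier times. At 6 h against 0 h 7 of the 13 were higher and 2 lower, with a median of 0.24 (1 lower without 6 h replicate 2), led by *Mkl1* (0.70), *Map2k2* (0.49) and *Srf* (0.48). *Srf* itself was not called at 1 h (adjusted p = 0.0516) and measured 9.68 ± 0.525, 12.3 ± 1.06 and 13.9 ± 1.35 FPKM at 0, 1 and 6 h.

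NuRD subunits, the partners of the NAB proteins, were present at all times. Of 13 subunit genes 3 were called higher and 0 lower at 1 h (median 0.12, beside 9.68% and 5.98% of genes tested), and 6 higher and 2 lower at 6 h against 0 h (median 0.15, beside 28.8% and 27.9%; 1 lower without 6 h replicate 2). *Mbd2*, a methyl-DNA binding subunit, rose from 28.1 ± 0.787 to 46.4 ± 7.49 FPKM at 1 h. *Chd4*, the remodelling ATPase, measured 92.7 ± 2.44, 111 ± 6.79 and 129 ± 2.16 FPKM. Its call at 1 h (0.26) was lost with FPKM scaled to the mean sum (adjusted p = 0.164), under quantile normalization (0.520), from the most abundant row (0.184) and on leaving out any of 4 single libraries, the first and last replicates of 0 h and of 1 h (0.0509 to 0.0632). The count of higher subunits at 1 h was 1 with FPKM scaled to the mean sum, under quantile normalization or without 1 h replicate 3, and 6 without 1 h replicate 2. The median turned to −0.03 and −0.06 under those scalings. Other factors of GC-rich sites, *Sp1*, *Sp3*, *Sp4* and *Wt1*, had 0 calls at 1 h with limma (0 at an unadjusted p below 0.05), and 1 lower call under either of those scalings. *Wt1*, a zinc finger factor of the gonad whose sites resemble those of EGR proteins, measured 11.1 ± 2.21, 13.7 ± 2.13 and 17.5 ± 0.879 FPKM and was higher at 6 h against 0 h (0.62).

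Genes known from other cells as EGR targets differed among themselves. Of 19 such genes 17 were tested. At 1 h 4 of the 17 were higher and 0 lower (median 0.29, 7 higher without 0 h replicate 2), beside 9.68% and 5.98% of genes tested. At 6 h against 0 h 11 were higher and 4 lower (median 0.63, 2 lower without 6 h replicate 2), beside 28.8% and 27.9%. From 1 h to 6 h 6 were higher and 6 lower, beside 26.7% and 26.9%. *F3*, the tissue factor gene, rose with *Egr1* from 4.22 ± 0.599 to 181 ± 51.3 FPKM at 1 h and was at 25.8 ± 7.33 at 6 h. *Arc*, a cytoskeletal immediate-early gene, went from 0.203 ± 0.0541 to 2.85 ± 0.545 and 3.90 ± 0.710 FPKM. *Plau*, the urokinase gene, was at 38.3 ± 1.73, 74.9 ± 10.2 and 162 ± 36.0 FPKM. *Sphk1*, a sphingosine kinase gene, was at 0.827 ± 0.583 and 0.872 ± 0.297 FPKM at 0 h and 1 h and at 22.8 ± 3.36 at 6 h. *Plaur*, the urokinase receptor gene, likewise was at 0.531 ± 0.0846, 0.882 ± 0.193 and 6.17 ± 0.370 FPKM. With means below 1 FPKM at 0 h, *Arc*, *Sphk1* and *Plaur* passed the filter mainly through later libraries. Their calls against 0 h are thus not free of it. *Ptges*, a prostaglandin E synthase gene named after its values were seen, was lower at 6 h, at 68.0 ± 6.78, 50.8 ± 2.91 and 14.9 ± 6.06 FPKM (−2.17 ± 0.21 against 0 h, limma adjusted p = 1.7e-05).

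EGR genes are also known to respond to tissue handling. Of 15 handling and heat-shock genes 12 were called higher and 0 lower at 1 h, beside 9.68% and 5.98% of genes tested. The list was led by *Junb* (2.87), *Ier3* (1.94) and *Bag3* (1.28), and had 8 higher calls when quantile normalized. The summed level of the 15 genes ran from 1291 to 1530 FPKM at 0 h, from 2819 to 3106 at 1 h and from 1801 to 1988 at 6 h. At 6 h against 0 h 8 were called higher and 0 lower, beside 28.8% and 27.9% of genes tested. The largest of these changes were in *Ier3* (2.25), *Bag3* (1.25) and *Hspb1* (1.15). From 1 h to 6 h 1 was called higher and 7 lower, beside 26.7% and 26.9%. The inducible heat-shock genes *Hspa1a* and *Hspa1b* were not called at 1 h (limma adjusted p = 0.216 and 0.0815), nor was *Hspb1* (0.268). The means of *Hspa1a* and *Hspa1b* went from 8.05 to 12.9 and from 13.8 to 24.6 FPKM. The heat-shock genes *Hspa8* (0.71), *Dnajb1* (0.45, adjusted p = 0.0406) and *Hsp90aa1* (0.42) were called higher at 1 h, as *Bag3* was. The part of handling in the EGR and NAB changes was not tested.

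All 9 granulosa markers were measured, with sums from 7771 to 8304 FPKM at 0 h and from 7696 to 11514 at 1 h. At 1 h 2 of the 9 were called higher and 1 lower, beside 9.68% and 5.98% of genes tested. *Cyp19a1*, the aromatase gene, was at 191 ± 8.002, 1074 ± 372 and 20.5 ± 2.46 FPKM at 0, 1 and 6 h, and *Nr5a2*, a nuclear receptor gene, at 412 ± 36.3, 749 ± 128 and 162 ± 17.3. *Foxl2*, a granulosa transcription factor gene, was at 90.2 ± 5.75, 54.8 ± 2.58 and 36.9 ± 13.2 FPKM. Its lower call at 1 h (−0.71, limma adjusted p = 0.0306) was lost with no filter on low values (0.0592) and on leaving out any 0 h library or 1 h replicate 1 or 3 (0.0617 to 0.0968). The part of these markers in the members' changes was not tested. At 6 h 8 of the 9 were called lower than at 0 h, beside 27.9% of genes tested, and the sum ran from 3255 to 3563 FPKM. Among markers of other cells, 9 theca and stroma, 6 endothelial, 3 leukocyte, 3 erythroid and 7 oocyte genes were tested. At 1 h 0 of them were called with limma, and 1, an oocyte marker, had an unadjusted p below 0.05. Without 1 h replicate 2 theca and stroma markers had 1 call in each direction. At 6 h against 0 h 28.8% of all genes tested were called higher and 27.9% lower. Of the oocyte markers tested 7 of 7 were higher, with sums of 38.3 to 57.1 FPKM at 0 h and 66.0 to 98.7 at 6 h. Endothelial markers were higher in 3 of 6 cases (5 without 6 h replicate 3), with sums of 16.7 to 24.2 and 25.7 to 33.3 FPKM. Theca and stroma markers were lower in 4 of 9 (7 without 0 h replicate 3), with sums of 218 to 332 and 128 to 154 FPKM. Among them *Cyp17a1* was at 123 ± 32.3, 193 ± 70.5 and 21.9 ± 5.04 FPKM at 0, 1 and 6 h. Of the 3 erythroid markers tested 1, *Hba-a1*, was lower (−0.80, limma adjusted p = 0.0448), a call lost with no filter on low values. The sums of 4 erythroid markers were 128 to 198 and 67.5 to 130 FPKM. Of 7 leukocyte markers, *Ptprc*, *Adgre1*, *Cd3e* and *Cd79a* did not exceed 1.20 FPKM in any of the 9 libraries, while *Lyz2* reached 9.86, *Cd68* 4.92 and *Csf1r* 1.83 FPKM. *Lyz2* was called lower at 6 h against 0 h (−0.39, limma adjusted p = 0.0191), but not without 0 h replicate 2 (0.0700) or 6 h replicate 1 (0.0644). Their sums ran from 12.0 to 18.3 FPKM at 0 h, from 14.3 to 17.9 at 1 h and from 9.34 to 12.071 at 6 h. No marker was at 0 in all 9. The part of other cells in the members' changes was not tested.

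Replicate 2 at 1 h had the lowest value of the 3 libraries in 6 of 6 members. The same library was lowest in 72.1% of the 1407 genes called higher at 1 h, and in 5 of 6 members and 54.3% of those genes once FPKM were scaled to the mean library sum. Without it the log2 change at 1 h was 2.34 in *Egr1* and 2.55 in *Nab2*, the highest values with any single library left out. *Egr4* has no such value, since it did not pass the filter without a 1 h library.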

How the data were processed

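RNA of granulosa cells was sequenced in 9 libraries made with an Illumina TruSeq RNA kit, per the labels' protocols. The submitters' processing notes name HISAT2 2.0.5 and mm10. Which program made the values is not given in the sources used here. Per the file headers, the authors deposited FPKM per transcript row in 1 table per library, with 54759 rows. Rows were summed per gene identifier, and 27 symbols turned into dates by a spreadsheet were restored.

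Log2(FPKM + 1) of 14535 genes (1 FPKM or more in 3 libraries) was fitted with limma 3.58.1 in R 4.3.3, with 1 mean per time and a trended prior variance. P-values were Benjamini-Hochberg adjusted over all genes tested, and the script was tested on simulated data. FPKM hold no read counts, so counting error is unknown. Named genes were the 6 members, the 5 nearest genes to each, and up to 3 called genes with the largest change per list and comparison. The nearest genes leave out predicted, clone-type, assembled and duplicate names. Some genes were named outside this rule, after their values were seen. These were *Ptges*, the heat-shock genes *Hspa1a*, *Hspa1b*, *Hspa8*, *Dnajb1* and *Hsp90aa1*, 6 leukocyte markers and the genes that overlap *Nab2*. Some single genes of the lists are not reported here. The members and lists were chosen with earlier results of these data known. Gene positions are from GENCODE M21 and promoter windows from RefSeq. Pseudocount, filter, scaling, row, variance, block and left-out library were varied. Pearson's r between libraries was 0.990 to 0.993 within a time and 0.944 to 0.987 between times.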

Additional observations from a re-analysis of the deposited data

How the results depend on the processing

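Of 18 member results (6 genes in 3 comparisons), 17 kept their direction and their side of the threshold in all alternatives that could be fitted. The exception was *Egr2* at 6 h against 0 h, which ranged from 0.39 to 0.68 with 1 library left out and lost its call without 0 h replicate 1 (0.39, limma adjusted p = 0.0587) and without 6 h replicate 2 (0.42, adjusted p = 0.0639). *Egr4* did not pass the filter without a 1 h library or in a fit of the 0 h and 6 h libraries alone, so those values were not run. The number of genes called at 1 h against 0 h was 2276. It was 3636 with FPKM scaled to the mean sum, and ran from 1199 without 1 h replicate 3 to 2824 without 1 h replicate 2. Leaving out a 0 h library gave 1424, 1499 or 1389 calls for replicates 1, 2 and 3, and leaving out 1 h replicate 1 gave 1305. The cause was not tested. *Gatad2a*, higher at 6 h from summed rows, was at −0.15 against 0 h (adjusted p = 0.268) and −0.29 against 1 h (adjusted p = 0.0485) from its most abundant row alone.

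From the rows with the highest mean over the 9 libraries, the EGR to NAB ratio was 7.79 at 0 h and 11.8 at 1 h. The *Egr1* to *Nab2* ratio was 26.7, 17.4 and 10.7 at 0, 1 and 6 h. In *Nab2* at 0 h another row was higher, so the 0 h ratios depend on the row chosen. From the same rows *Egr3* made up 2.99% and 19.96% of the EGR sum at 1 h and 6 h. Of 1278 further values of named list genes, 1213 kept their direction and side of the threshold, and of 1188 list counts 1108 stayed within 1.5 times. Whether same-numbered libraries share more than a number is not in the labels and was not tested. Deviations correlated from −0.08 to 0.15 between same-numbered libraries of different times and from −0.15 to 0.09 between other-numbered ones. Among the 3 libraries of another time, the one with a library's own number correlated best in 12 of 18 cases. With a replicate block 1991, 8089 and 7632 genes were called in place of 2276, 8231 and 7783, and no member call changed. FPKM give no depth, so the counting error of low levels such as those of *Egr4* at 0 h and 6 h is unknown.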
